A study of Homo sapiens with 3 samples.

Results

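The genes described here are the 8 named genes that set, keep, read or remove DNA methylation in human cells: DNMT1, DNMT3A, DNMT3B, UHRF1, TET1, TET2, TET3 and TDG. They were chosen by name among the 23284 genes with a value, and all 8 were found. Their expression was followed in RNA-seq of 293T cells, a transformed human embryonic kidney cell line, into which dCas9-VP64 was brought transiently. This fusion joins a nuclease-dead Cas9 to the VP64 activation domain and recruits transcription to the site its guide RNA selects. It was combined with the parental sgRNA vector (mock), with sgL1ASP #1 or with sgL1ASP #3 (guide #1 and guide #3 below), both of which target the antisense promoter (ASP) of LINE-1 (L1), so that dCas9-VP64 was common to all 3 libraries. The guides were not equivalent in the reporter assays of the paper. Guide #1 activated the ASP more strongly than guide #3. It lowered the activity of the L1 sense promoter, which guide #3 slightly raised. Each condition had 1 library. No difference therefore has a replicate check, and all folds below describe these libraries and not the conditions.

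Cytosine methylation at CpG sites keeps L1 promoters, the antisense promoter included, silent in most somatic cells. DNMT3A and DNMT3B place new methyl groups, and DNMT1 copies the pattern onto the new strand after replication, guided by UHRF1, which binds hemimethylated CpG sites. The TET enzymes oxidize methylcytosine, and TDG excises the oxidized bases so that repair restores an unmodified cytosine. The comparison asks whether transcripts of this machinery differed when a transcriptional activator was directed to the L1 ASP. RNA levels were measured, and neither DNA methylation nor protein was.

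The values are FPKM, in which the fragments of a gene are divided by its length and by the depth of the library, so levels of different genes can be set side by side. The values sum to between 619902.5 and 673483.0 per library, and the depth estimated from the lowest values was 10500000 reads in mock, 10300000 with guide #1 and 8700000 with guide #3. Of 8 genes typical of this cell line, among them VIM, KRT8 and the neurofilament gene NEFM, 7 had FPKM of at least 1 in each library, and the kidney factor PAX2 stayed between 0.522 and 0.658. Of 8 genes of other cell types, 2 (COL1A1 and OLIG2) reached FPKM 1 in each library, while PTPRC and CD3E were listed at 0 in all. The summed FPKM of the first list was between 982.5 and 1081 and that of the second between 6.59 and 8.21. HPRT1, the reference gene of the study, had FPKM between 112.7 and 116.6. The activated L1 transcripts have no entry of their own among the gene values, so L1 ASP activation itself could not be followed here.

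All 8 genes had FPKM of at least 1 in every library, and DNMT1 was the most abundant in each. The genes that maintain methylation stood at the head, TDG followed, and the de novo enzymes and the TET genes were the lowest. DNMT1, UHRF1, TDG and DNMT3B held ranks 1 to 4 in every library, so that 4 of the 8 genes kept the same rank. The order below them varied. TET1 was 1.03-fold above DNMT3A in mock, and DNMT3A was above TET1 by 1.31-fold with guide #1 and 1.06-fold with guide #3. TET3 was 1.03-fold above TET2 in mock and 1.18-fold above it with guide #3, while TET2 was 1.11-fold above TET3 with guide #1. With 1 library per condition, whether these neighbours differ beyond the spread between replicates was not tested.

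**Figure D1:**
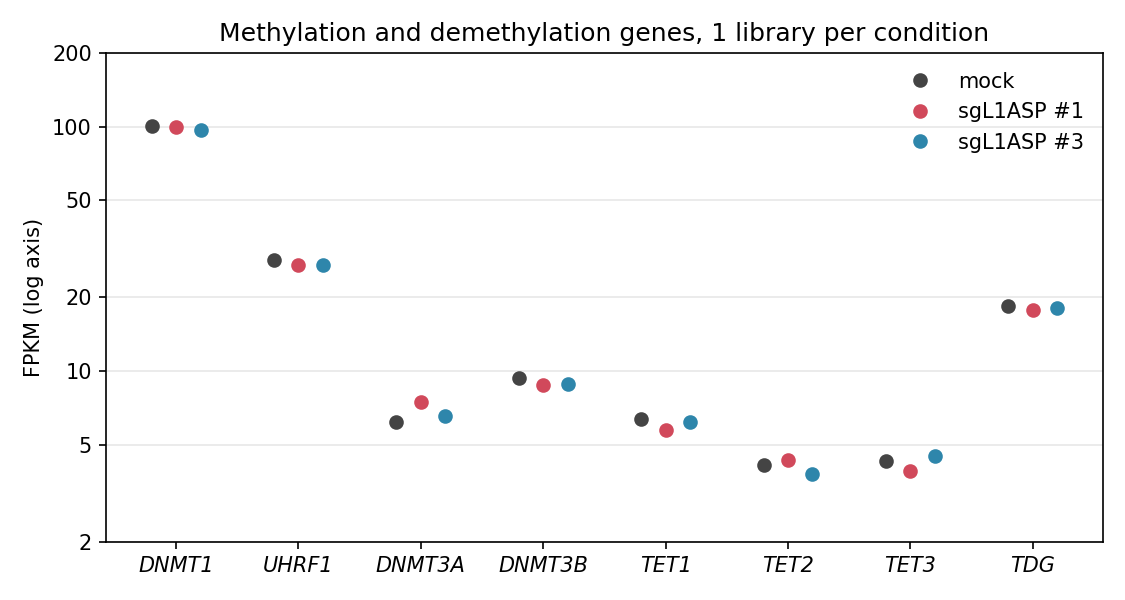
FPKM (log axis) of the 8 genes, with 1 point per library for mock, guide #1 and guide #3 and no error bar because each condition had 1 library. The 3 points of each gene lie close together, from DNMT1 at 96.7 to 100.3 down to TET2 at 3.80 to 4.34, and the widest gap is that of DNMT3A.

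The start sites of the 8 genes were compared for CpG sites, the substrate of their own proteins. In the 300 bases from 250 before to 50 after the canonical start, 6 of the 8 genes had more CpG sites than the median of 23 over 19514 protein-coding genes. DNMT3A had 46 and TET3 45, counts that 4.45% and 5.34% of all genes reached. TET2 had 35, UHRF1 36, DNMT1 30 and DNMT3B 30. TDG had 22, which 54.4% of all genes reached, and TET1 had 10. The 30 bases just before the start are shown for the genes with the most and the fewest CpG sites, and for DNMT3B as the paralog of DNMT3A, on the strand of the gene and with CpG sites in capitals. In GRCh37 they lie at chr2:25564795-25564824 (minus strand) for DNMT3A, chr20:31350161-31350190 (plus strand) for DNMT3B, chr2:74212007-74212036 (plus strand) for TET3 and chr10:70320064-70320093 (plus strand) for TET1, outside the annotated exons of their genes.
DNMT3A: caggcaggCGggcCGggagggagggagggc
DNMT3B: tacaaggggagtCGgcacCGccccctcccc
TET3: gagcaCGtgcCGCGgtgCGCGgggggCGgg
TET1: agggtccagCGaaggcagagccccagcttc
These stretches hold 2 CpG sites in DNMT3A, 2 in DNMT3B, 6 in TET3 and 1 in TET1. The methylation of these sites was not measured in these libraries.

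None of the 8 genes passed 1.5-fold in either direction in any comparison. The study used this fold only for rises, from mock to guide #3 and again from guide #3 to guide #1. Here it was applied to each pair of libraries alone. The share of all genes with mean FPKM of at least 1 that passed it in either direction was 3.50% for guide #1 against mock, 3.82% for guide #3 against mock and 3.62% between the guides, shares at which a list of 8 genes holds less than 1 such gene. The median change of the 8 genes on the log2(FPKM + 0.1) scale was -0.061 with guide #1 and -0.048 with guide #3, beside 0.001 over all 12830 genes with mean FPKM of at least 1 in either comparison. FPKM was lower than in mock for 6 of the 8 genes with guide #1 and for 6 with guide #3, where 49.6% and 49.4% of all tested genes were lower. The 2 comparisons share the mock library. When the 3 libraries were brought to an equal FPKM sum, the median of all tested genes moved to -0.092 with guide #1 and -0.117 with guide #3, and the changes of the 8 genes moved with it, so that 1 and 0 of them were then above mock. Such a scaling moves all genes alike and does not bear on how the 8 genes stand among the others. It also leans on few genes. The 10 highest held 12.7% of the sum in mock, 15.1% with guide #1 and 16.4% with guide #3. Single log2 changes of tested genes ran from -15.925 to 17.69 with guide #1. Of the 12830 genes, 12763 had a value above 0 in mock. A gene listed at 0 in 1 of the libraries can give such extremes, which are then set by the pseudocount and are no measured folds.

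DNMT1, the maintenance methyltransferase, is a minus-strand gene of chromosome 19 (GRCh37) at 10244018 to 10341962. Its FPKM was 100.3 in mock, 99.2 with guide #1 and 96.7 with guide #3. Mock was the highest library and guide #3 the lowest, 1.037-fold apart, and 9.52% of tested genes had a narrower span over the 3 libraries. The log2 change was -0.016 with guide #1 and -0.052 with guide #3. At the estimated depth DNMT1 was covered by about 5320 reads in mock, which makes it the most precisely measured of the 8 genes, with a counting standard error of 0.028 and 0.030 on those changes.

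UHRF1, the reader that brings DNMT1 to hemimethylated DNA, lies on the plus strand of the same chromosome from 4903092 to 4962165. Its FPKM was 28.4 in mock, 27.1 with guide #1 and 27.1 with guide #3. The libraries of both guides were nearly equal and both lay below mock, with log2 changes of -0.069 and -0.066, where the counting standard errors were 0.063 and 0.065. DNMT1 was 3.53-fold above UHRF1 in mock, 3.66-fold with guide #1 and 3.57-fold with guide #3, so that the proportion of the 2 maintenance transcripts varied 1.04-fold over the libraries. The UHRF1 values carry the limit on near-identical copies given further on.

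DNMT3A lies on the minus strand of chromosome 2 from 25450724 to 25565459. Its FPKM was 6.19 in mock, 7.48 with guide #1 and 6.54 with guide #3. It was the member with the largest difference, 1.208-fold higher with guide #1 than in mock, while guide #3 lay 1.057-fold above mock. The log2 change with guide #1 was 0.27, larger than in 93.3% of all tested genes, and 0.078 with guide #3 (-0.040 at an equal FPKM sum, still above the median of all tested genes). Between the guides the difference was 0.19. A difference of 0.27 is 3.35 times its counting standard error of 0.080 when the reads are estimated with the canonical transcript of 9421 bases, and 2.03 times when the median length of its protein-coding transcripts, 3585 bases, is used. DNMT3A was the only member past 1.2-fold against mock, with guide #1, where 14.8% of tested genes passed that limit in either direction and 6.90% in the higher direction.

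DNMT3B, the other de novo enzyme, lies on the plus strand of chromosome 20 from 31350191 to 31397165. Its FPKM was 9.35 in mock, 8.74 with guide #1 and 8.83 with guide #3. Both guide libraries were below mock, with log2 changes of -0.097 and -0.083, each smaller than its counting standard error of 0.104 and 0.108. DNMT3B was above DNMT3A in every library, but the ratio of DNMT3B to DNMT3A was 1.51 in mock, 1.17 with guide #1 and 1.35 with guide #3. Their sum was 15.5, 16.2 and 15.4 FPKM in the same order. The 3 DNMT genes together had FPKM 115.8 in mock, 115.4 with guide #1 and 112.1 with guide #3, and DNMT1 made up between 85.9% and 86.6% of it.

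TET1, whose protein binds CpG-rich DNA through a CXXC domain, lies on the plus strand of chromosome 10 from 70320094 to 70454244. Its FPKM was 6.38 in mock, 5.73 with guide #1 and 6.19 with guide #3. Mock was the highest library, and the log2 change was -0.15 with guide #1 and -0.043 with guide #3. The first was 1.83 times its counting standard error and the second 0.503 times.

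TET2, which lacks a CXXC domain of its own, lies on the plus strand of chromosome 4 from 106067032 to 106200973. Its FPKM was 4.14 in mock, 4.34 with guide #1 and 3.80 with guide #3. TET3, the TET enzyme of the zygote, lies on the plus strand of chromosome 2 from 74212037 to 74335303, with FPKM 4.27 in mock, 3.92 with guide #1 and 4.50 with guide #3. These genes stood on opposite sides of mock in the guide libraries as deposited. At an equal FPKM sum, which moves all genes alike, TET2 with guide #1 was at -0.024 and TET3 with guide #3 at -0.046, both still above the median of all tested genes. The log2 change of TET2 was 0.068 with guide #1 and -0.118 with guide #3, and that of TET3 was -0.122 and 0.071. In counting standard errors the sizes were 0.677 and 1.09 for TET2 and 1.35 and 0.775 for TET3. The difference between the guides was 0.186 for TET2, 1.73 times its counting standard error, and -0.193 for TET3, 2.06 times. The ratio of TET3 to TET2 was accordingly 1.03 in mock, 0.903 with guide #1 and 1.18 with guide #3. The summed FPKM of the 3 TET genes varied less, at 14.8 in mock, 13.99 with guide #1 and 14.5 with guide #3. The DNMT sum was 7.83 times the TET sum in mock, 8.25 times with guide #1 and 7.74 times with guide #3.

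TDG, thymine DNA glycosylase, lies on the plus strand of chromosome 12 from 104359600 to 104382652. Its FPKM was 18.5 in mock, 17.8 with guide #1 and 18.1 with guide #3. The highest and lowest libraries were 1.038-fold apart, and the log2 change was -0.054 with guide #1 and -0.025 with guide #3, each under its counting standard error of 0.086 and 0.090. Like UHRF1, TDG has stretches that occur elsewhere in the genome.

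**Figure D2:**
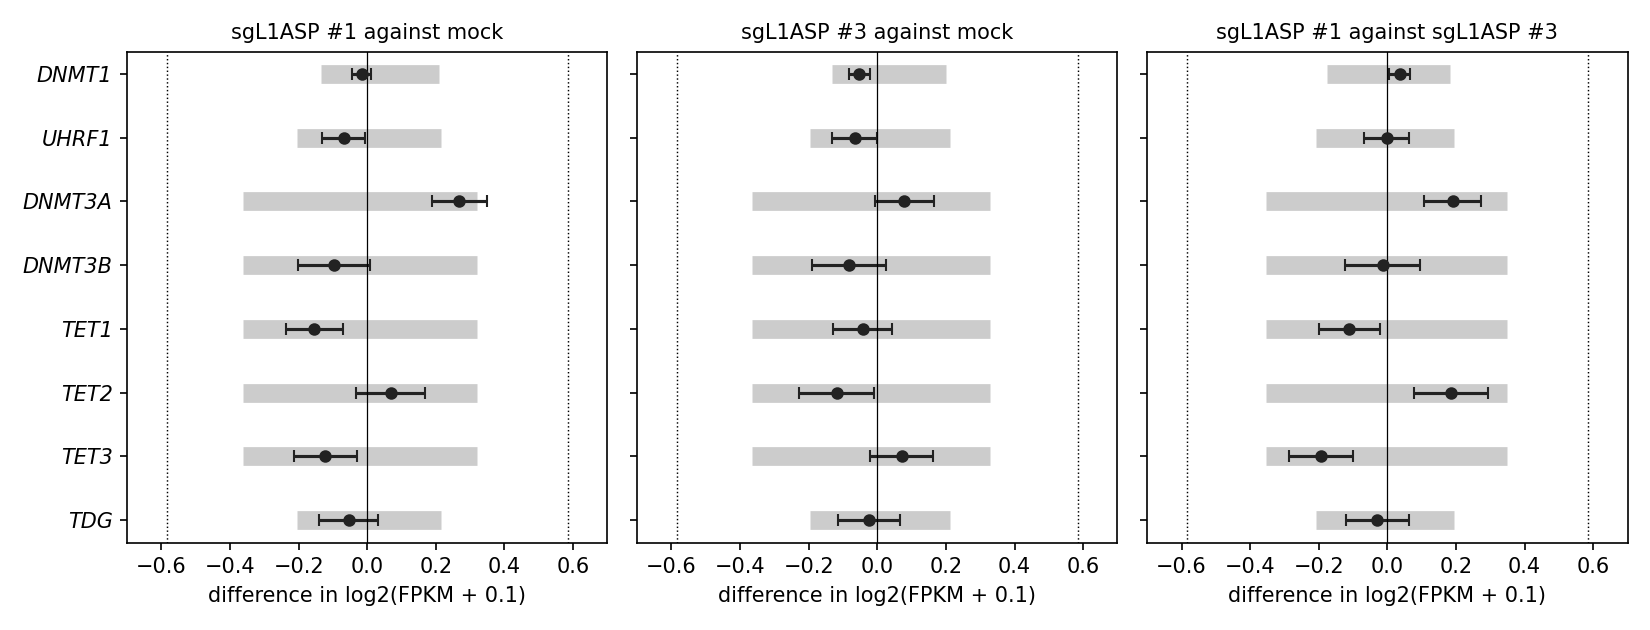
Difference in log2(FPKM + 0.1) for the 8 genes in the 3 comparisons, where the points are single differences and the bars span 1 counting standard error on each side at the estimated depth with the canonical transcript length. Grey bars span the 5th to 95th percentile of all genes in the same FPKM range and dotted lines mark 1.5-fold. All points lie inside their grey bar, which by construction holds most genes of that level. DNMT3A with guide #1, at 0.27, is nearest to the upper end of its bar, 0.32.

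With no replicates, the changes of all genes of a similar level were used to describe how far values differ between these libraries. The genes with mean FPKM from 3 to 10, which include DNMT3A, DNMT3B and the TET genes, had changes from -0.363 to 0.321 between the 5th and 95th percentiles with guide #1. For the genes from 10 to 50, which include UHRF1 and TDG, this range was -0.204 to 0.216, and for those above 50, which include DNMT1, it was -0.134 to 0.209. In each of the 3 comparisons, 8 of the 8 genes lay within the range of their level. Such a range holds most genes of a level by construction, so this count does not set the 8 genes apart. Of the 24 differences, 3 were over 2 counting standard errors and 12 were under 1, and with the median transcript length 1 was over 2. The 3 were DNMT3A with guide #1 against mock (3.35), DNMT3A between the guides (2.29) and TET3 between the guides (2.06). Both DNMT3A differences use the same guide #1 library, and the comparisons share libraries throughout. How often all tested genes pass this limit was not computed, so the count is not set against a background. A counting standard error covers the counting of reads in these libraries only. The median over the 8 genes of the highest library over the lowest was 1.092-fold, beside 1.113-fold over all tested genes.

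The 3 genes whose changes were nearest to those of DNMT3A, by the distance in the 2 log2 changes against mock, were LOC100129845, PTPN9 and KDM4D. PTPN9, a tyrosine phosphatase gene, had FPKM 8.98 in mock, 10.9 with guide #1 and 9.45 with guide #3. KDM4D, a histone demethylase gene, had 1.96, 2.37 and 2.07, and LOC100129845 had 2.67, 3.24 and 2.81. Within a distance of 0.05 there were 96 genes, so 3 libraries do not single out any of them.

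Sequence features of the 8 genes that could bear on their values were examined in GRCh37. Reads were 75 bases long, so every 75-base stretch of the canonical transcript was searched for a perfect second match outside the gene. For UHRF1 47.1% of the stretches had one, on chromosome 12 from 20704503 to 20707294. For TDG 34.6% had one, on chromosome 11 from 56853648 to 56855082 and on chromosome 12 from 25956259 to 25959137, the latter at the pseudogene TDGP1. For TET1 the share was 0.388%, and for DNMT1, DNMT3A, DNMT3B, TET2 and TET3 it was 0.0%. The levels of UHRF1 and TDG are therefore less certain than those of the other 6 genes, since their value depends on how such reads were assigned. Any part of this in the differences between libraries was not tested.

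DNMT1 overlaps the annotated span of S1PR2 on its own strand and of MIR4322 on the other, and UHRF1 and DNMT3A overlap MIR4747 and MIR1301 on their own strand. The study counted with regard to strand, so reads from the strand opposite to a gene were kept apart.

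The wider pathway was followed in 57 genes listed by name, of which 49 had mean FPKM of at least 1. None of the 49 passed 1.5-fold in any of the 3 comparisons, beside the background shares of 3.50%, 3.82% and 3.62%. Their median log2 change was 0.015 with guide #1 and -0.005 with guide #3. Past 1.2-fold there were 5 genes with guide #1 and 3 with guide #3, where 14.8% and 15.5% of all tested genes passed. Between the guides there were 2, where 15.1% did. These shares cover all levels, while most of the 49 genes had mean FPKM above 10. With guide #1 the 5th to 95th percentiles were -0.204 to 0.216 at FPKM 10 to 50, against -0.648 to 0.648 at 1 to 3. The shares are therefore not matched to the level of these genes.

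Partners of the methyltransferases were represented by 9 expressed genes of 12, with median changes of 0.010 and -0.077 with guide #1 and guide #3. PCNA, the sliding clamp that tethers DNMT1 to the replication fork, was the most abundant, with FPKM 277.7 in mock, 271.2 with guide #1 and 261.2 with guide #3. TRDMT1, a homolog of the DNA methyltransferases that methylates tRNA, had the largest change, with FPKM 1.199 in mock, 1.214 with guide #1 and 0.890 with guide #3. TRDMT1 passed the limit on mean FPKM through mock and guide #1, where it was higher. Its log2 change of -0.392 with guide #3 has a counting standard error of 0.185. DNMT3L, a catalytically inactive cofactor of the de novo enzymes that is normally expressed in germ cells, had FPKM 0.064 in mock and with guide #1 and was listed at 0 with guide #3. At the estimated depth its values in mock and guide #1 correspond to about 0.788 and 0.787 reads, so no more than a single read stands behind each. The related germline or embryonic genes ZFP57 and DPPA3 were listed at 0 in every library.

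Among the methyl-CpG readers, 9 of 10 were expressed, with median changes of -0.037 and 0.012. MBD3, a subunit of the NuRD complex, was the most abundant, with FPKM 97.5 in mock, 92.0 with guide #1 and 97.4 with guide #3. MBD2, which binds methylated CpG and recruits the same complex, had the largest change, with FPKM 4.63, 4.87 and 5.48. On the log2 scale this was 0.24 with guide #3, with a counting standard error of 0.133. Among the CXXC proteins and TET partners, 6 of 7 were expressed, with medians of 0.024 and 0.023. OGT, the glycosyltransferase that binds TET2 and TET3, had FPKM 54.1, 56.8 and 56.4. CXXC5, whose protein binds unmethylated CpG, had FPKM 6.68, 5.14 and 6.19, a log2 change of -0.37 with guide #1 and -0.11 with guide #3. The counting standard errors of these changes were 0.170 and 0.169.

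Base excision repair completes demethylation after TDG. Of 14 genes listed, 12 were expressed, with medians of 0.059 and -0.011. APEX1, the endonuclease that cuts at the abasic site, was the most abundant at FPKM 229.2 in mock, 243.2 with guide #1 and 246.9 with guide #3. GADD45B, a stress-induced adaptor linked to demethylation, had the largest change, with FPKM 9.30, 11.9 and 10.6. Its log2 change with guide #1 was 0.352, with a counting standard error of 0.181.

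The supply of the methyl donor and of the TET cofactor was covered by 14 genes, of which 13 were expressed, with medians of -0.025 and -0.004. SHMT2, a mitochondrial enzyme of one-carbon metabolism, was the most abundant, with FPKM 384.1 in mock, 370.0 with guide #1 and 385.0 with guide #3. D2HGDH, which clears the TET inhibitor 2-hydroxyglutarate in its D form, had the largest change of the 49 genes. Its FPKM was 11.1 in mock, 14.9 with guide #1 and 13.96 with guide #3, log2 changes of 0.42 and 0.33. Both guide libraries were above mock, by 1.342-fold and 1.26-fold, and both comparisons share the mock library. The counting standard errors of the log2 changes were 0.115 with guide #1 and 0.122 with guide #3. The lowest of the 13 genes in both comparisons was IDH1, at -0.323 and -0.257, with errors of 0.108 and 0.112. Genes at FPKM 10 to 50 ran from -0.204 to 0.216 with guide #1 and -0.196 to 0.213 with guide #3 between the 5th and 95th percentiles. D2HGDH lay above these ranges and IDH1 below them.

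**Figure D3:**
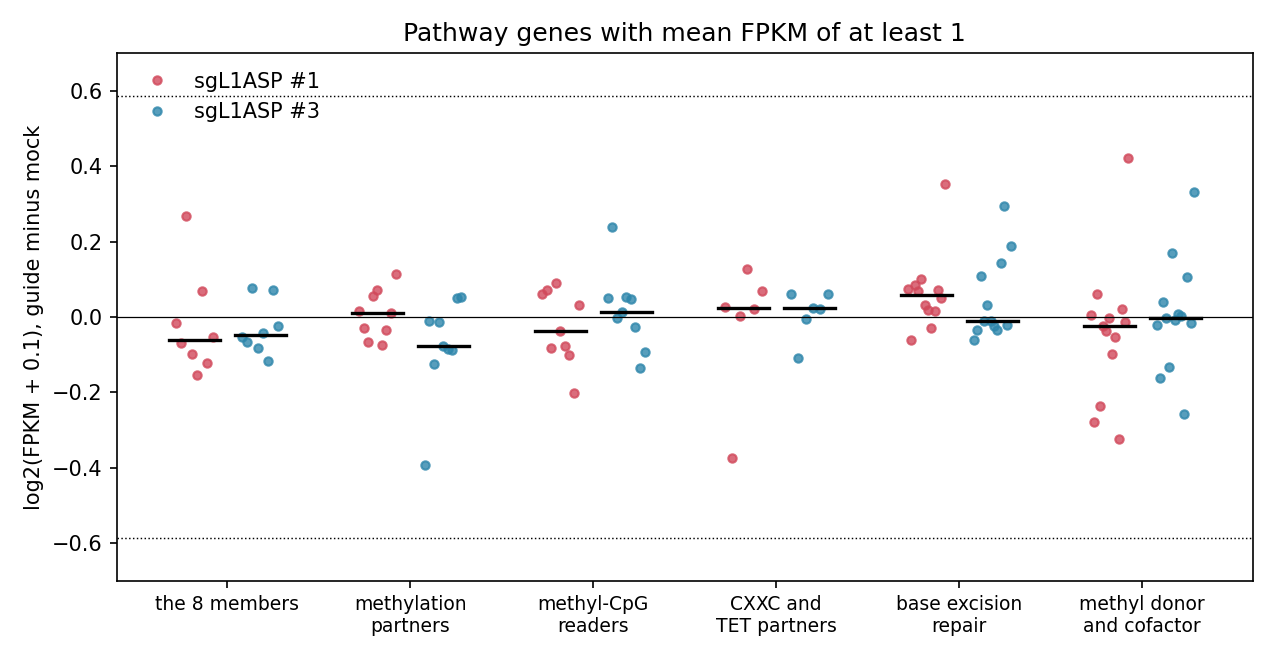
Difference in log2(FPKM + 0.1) between each guide library and mock for the 8 genes and for the 49 expressed pathway genes by role, with 1 point per gene and a black line at the median. No point reaches the dotted lines at 1.5-fold, the medians lie between -0.077 and 0.059, and the highest point is D2HGDH with guide #1 at 0.42.

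Transcripts whose genes are known to depend on DNA methylation were also followed. A pooled median of such genes does not measure the activity of the machinery. Of 10 germline genes that methylation silences in somatic cells, 0 reached a mean FPKM of 1 and 4 (DAZL, MAEL, BRDT and MAGEA4) were listed at 0 in every library. SYCP3, a gene of the synaptonemal complex, was the highest, with FPKM 0.543 in mock, 0.109 with guide #1 and 0.383 with guide #3, values that correspond to about 5.22, 1.03 and 3.06 reads. Of 12 imprinted genes, 4 had mean FPKM of at least 1. Their median log2 change was 0.255 with guide #1 and 0.087 with guide #3 (0.168 and -0.032 at an equal FPKM sum). Among those with FPKM of at least 1 in every library it was 0.152 with guide #1 and 0.096 with guide #3. With guide #1 all 4 were above mock as deposited, by between 0.014 and 0.371 on the log2 scale. Of all 12830 tested genes 6448 were above mock in that comparison. The lowest of the 4, GRB10 at 0.014, is smaller in size than the shift of -0.094 that an equal FPKM sum brings. IGF2, the insulin-like growth factor gene, had FPKM 1.192 in mock, 1.556 with guide #1 and 1.434 with guide #3, with counting standard errors of 0.235 and 0.249 on its log2 changes of 0.36 and 0.25. GRB10, an adaptor gene of insulin signalling, had FPKM 20.2 in mock, 20.4 with guide #1 and 21.6 with guide #3. PLAGL1, a zinc finger gene, was the most abundant, with FPKM 40.3 in mock, 44.8 with guide #1 and 42.6 with guide #3.

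Of these 4 genes, 0 passed 1.5-fold with guide #1 and 1 passed with guide #3 and between the guides, where 3.50%, 3.82% and 3.62% of all tested genes passed. The gene was NNAT, which encodes neuronatin. Genes of the list with a lower mean, such as SYCP3, also passed this fold but rest on a few reads and were not counted. NNAT had FPKM 1.595 in mock, 2.09 with guide #1 and 0.842 with guide #3. It passed the limit on mean FPKM through the libraries in which it was higher, and its values correspond to about 17.7, 22.8 and 7.76 reads, so that the log2 change of -0.85 with guide #3 has a counting standard error of 0.621. SNRPN, an imprinted gene that many cell types express, was listed at 0 in every library, which can be a failed estimate. The same limit holds for every other gene given here as listed at 0 in all libraries, the markers PTPRC and CD3E included.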

How the data were processed

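RNA-seq was analysed in 3 libraries, 1 per condition, with 0 columns of values left without a sample. The authors deposited FPKM per gene, calculated with Cuffdiff (Cufflinks 2.2.1) in strand-specific mode from TruSeq stranded mRNA, 75-base single-end reads mapped to hg19 with TopHat2 2.0.13, Bowtie2 2.2.3 and SAMtools 0.1.19. The gene annotation is not given in the sources used here. FPKM were used without rescaling. Folds are FPKM ratios with no pseudocount, genes at 0 in the denominator giving no ratio, and log2 changes used a pseudocount of 0.1, which understates the change of low genes. Tested or expressed means an average FPKM over the 3 libraries of at least 1. With 1 library per condition no test was run. Other pseudocounts, folds, filters, scalings and transcript lengths were tried.

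The 8 genes and the pathway lists were chosen with earlier results of these data known. Beside the 8 genes, the rule named in each role of the lists the gene with the highest mean FPKM, that with the largest change against mock and any past 1.5-fold, together with HPRT1 and the 3 genes nearest to the member with the largest change. Genes named for being listed at 0, DNMT3L, IDH1, IGF2 and GRB10 were added after their values were seen.

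Depth was estimated from the spacing of the lowest FPKM among genes with 1 transcript longer than 1000 bases in GENCODE 44 lifted to GRCh37 (the sequence of hg19), after taking 200 bases for a fragment. Between 40 and 60 genes formed the peak. Counting errors follow from the estimated reads and cover counting only. Python 3.11.15, NumPy 2.4.6, pandas 2.3.3 and matplotlib 3.10.9 were used.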

Additional observations from a re-analysis of the deposited data

Results flagged for a closer look

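TET2, TET3 and NNAT stood on opposite sides of mock in the libraries of the 2 guides, by at least 0.05 on the log2 scale in each. How many of all tested genes do so was not counted, so this is no trait of these genes. The log2 change of TET2 was 0.068 with guide #1 and -0.118 with guide #3. That of TET3 was -0.122 and 0.071. That of NNAT was 0.371 and -0.848. In size the TET2 changes were 0.677 and 1.09 times their counting standard errors, and those of TET3 1.35 and 0.775 times. For NNAT these errors were 0.457 and 0.621. With 1 library per condition the difference between the guides was not tested for any of these genes. Both changes of a gene share the mock library. The guides also differed in their effect on the L1 sense promoter in the paper, and any link to these changes was not tested.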

How the results depend on the processing

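Values were compared with a limit of 1.5-fold. For log2 changes this limit is wider than any shift the scalings give, so that staying within it says nothing about their stability. Without the filter on low values the median log2 change of the methylation-dependent genes with guide #1 was 0.002, against 0.255. No paired analysis was possible because the 3 conditions hold 1 library each, which also leaves no library to omit. An equal FPKM sum in the 3 libraries left 1 of the 8 genes above mock with guide #1 and 0 with guide #3, in place of 2 and 2, and put 5 in place of 3 above between the guides. The sum was set to 1000000, which raises all levels as a change of unit would, so that the DNMT sum became 186.8 in mock, 174.4 with guide #1 and 166.4 with guide #3, and the TET sum 23.9, 21.1 and 21.5. Of 24 log2 changes of the 8 genes, 5 changed sign under this rescaling, 1 under the median ratio and 0 under either pseudocount. The median ratio factors were 1.0005 in mock, 1.0006 with guide #1 and 0.99826 with guide #3. That scaling could therefore change almost nothing and is no check on these values. The equal sum moves all genes alike, so that changes near 0 turn by construction. The values that follow are at an equal sum. With guide #1 TET2 went to -0.024, with guide #3 DNMT3A went to -0.040 and TET3 to -0.046, and between the guides UHRF1 went to 0.024 and DNMT3B to 0.012.

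At a 1.2-fold threshold, 1 of the 8 genes passed with guide #1, against 0 at 1.5-fold. The pathway genes past 1.2-fold were 5 with guide #1, 3 with guide #3 and 2 between the guides, against 0 in each. Without a filter on low values they were 2, 1 and 2 past 1.5-fold. The methylation-dependent genes past 1.5-fold were 0 with guide #1, 1 with guide #3 and 1 between the guides. Without the filter they were 3, 3 and 7, with a minimum FPKM of 1 in all 3 libraries 0 in both comparisons that involve guide #3, with a 1.2-fold threshold 2 with either guide, and with a 2-fold threshold 0 with guide #3. The number of differences of the 8 genes over 2 counting standard errors was 3, and 1 with the median transcript length, an alternative added after seeing the data. Levels near FPKM 4 rest on about 311 to 530 reads, which limits what can be seen for TET2 and TET3.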
